A study of Mus musculus with 4 samples.

Results

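The 6 genes described here, all of the Sox family of transcription factors, were followed in single cells of the mouse cerebral cortex: the SoxB1 genes Sox1, Sox2 and Sox3 and the SoxC genes Sox4, Sox11 and Sox12. They were found by their symbols among 57126 features, and all 6 had counts in all 4 libraries. The libraries came from a Tsku knockout mouse and a wild-type mouse on the day of birth (P0), an E14.5 embryo whose library carries the Tsku knockout label, and a wild-type E14.5 embryo. Each group is 1 animal, and the knockout is described by the labels only as TSK knockout. Tsku encodes Tsukushi, a secreted leucine-rich proteoglycan.

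Sox factors bind DNA through a shared high-mobility-group box. SoxB1 factors mark neural stem and progenitor cells, including the radial glia that line the ventricle, and are known to hold them in an undifferentiated state, often together with POU and Pax partners. SoxC factors are known for switching on neuronal genes such as Tubb3 and Dcx as cells leave the progenitor state and pass through the Eomes-positive intermediate progenitor on the way to a projection neuron. The handover from one subfamily to the other is a standard description of neurogenesis in vertebrates.

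Barcodes were placed along that route by markers that exclude all 6 genes: 10 radial glial genes, Eomes, and 6 projection neuron genes. Radial glia numbered 309 in the P0 knockout, 167 in the P0 wild type, 558 in the library labelled E14.5 knockout and 67 in the E14.5 wild type. Eomes-positive cells numbered 122, 87, 473 and 73 in the same order of libraries, and projection neurons numbered 453, 422, 1384 and 250. Counts were summed over the cells of a gate and expressed per 1000000 counts of that gate (CPM). Intervals are 95% intervals for counting error only, since no group has a second animal, and no test across animals could be made. A ratio is counted as past the fold at 0.5 or more on the log2 scale and is read only where the 2 sums together hold 30 or more counts.

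Kept barcodes numbered between 620 and 4107 per library, with median counts per barcode between 2829 in the library labelled E14.5 knockout and 7346 in the E14.5 wild type. Up to 3 barcodes of a library occurred in another. Tsku itself had 0 counts in the P0 knockout against 42 counts in the P0 wild type. The library labelled E14.5 knockout held 74 Tsku counts (5.14 CPM), against 54 (9.63 CPM) in the E14.5 wild type, which goes against its label, so directions taken from it compare 2 embryos and not 2 established genotypes. Those embryos also differed in sex, with 6707 Xist counts in the library labelled knockout against 3 in the E14.5 wild type, which bears on the X-linked Sox3. The P0 knockout had 1 Xist count and the P0 wild type 0. Across the ages the libraries with the knockout label thus differed in sex, and the wild-type libraries did not. Doublets were not removed by a caller, and barcodes with markers of 2 lineages were set aside.

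Of the 5 available start regions, 4 are shown: those of Sox1 and Sox2, and those of Sox4 and Sox11, the SoxC genes with the larger ratios of neurons over radial glia in all 4 libraries. Each is the 250 bases before the RefSeq start site on the gene's strand in build GRCm38.p6, 5′ to 3′, at chr8:12395269-12395518 (plus strand) for Sox1, chr3:34649745-34649994 (plus) for Sox2, chr13:28953700-28953949 (minus) for Sox4 and chr12:27342719-27342968 (minus) for Sox11. Capitals mark matches, on either strand, to the motifs searched. These were the CCAAT box, spelled CCAAT, and the E-box, spelled CAGCTG. A Sox motif was spelled ACAAAG, an RBPJ motif was spelled TGGGAA, and a TATA box was spelled TATAAA. The octamer bound by POU factors was spelled ATGCAAAT.
Sox1: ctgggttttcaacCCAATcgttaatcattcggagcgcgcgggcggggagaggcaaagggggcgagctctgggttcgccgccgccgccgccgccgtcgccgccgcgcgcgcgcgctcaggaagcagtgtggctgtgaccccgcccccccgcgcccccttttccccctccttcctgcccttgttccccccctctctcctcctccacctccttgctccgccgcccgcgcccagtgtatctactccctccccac
Sox2: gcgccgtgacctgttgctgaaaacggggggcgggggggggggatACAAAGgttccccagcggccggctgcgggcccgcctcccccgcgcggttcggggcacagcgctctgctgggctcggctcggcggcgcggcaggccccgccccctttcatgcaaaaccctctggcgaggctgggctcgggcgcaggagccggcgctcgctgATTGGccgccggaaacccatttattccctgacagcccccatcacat
Sox4: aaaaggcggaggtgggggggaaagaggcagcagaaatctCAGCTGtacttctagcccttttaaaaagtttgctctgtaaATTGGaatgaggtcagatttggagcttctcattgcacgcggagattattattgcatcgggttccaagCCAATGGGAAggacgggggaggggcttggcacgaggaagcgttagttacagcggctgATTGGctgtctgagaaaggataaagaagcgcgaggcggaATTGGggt
Sox11: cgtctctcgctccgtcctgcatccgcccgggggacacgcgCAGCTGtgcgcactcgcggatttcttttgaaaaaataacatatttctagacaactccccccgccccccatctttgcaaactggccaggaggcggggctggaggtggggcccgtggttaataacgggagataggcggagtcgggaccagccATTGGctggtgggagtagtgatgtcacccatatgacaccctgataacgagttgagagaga

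The RefSeq table held a start region for 5 of the 6 genes, all but Sox3. CCAAT or its reverse complement was present in all 5, against 33.8% of 32851 windows of the same length. Sox4 held 4 matches, one of which overlaps the single TGGGAA match, and the E-box CAGCTG was found in Sox4 and Sox11 at 211 and 210 bases before the start, against 13.0% of all windows. ACAAAG was found in Sox2 (16.5% of all windows), the octamer in Sox12 (1.60%), and TATAAA in none of the 5 (12.4%). A match is a run of letters, not a bound site.

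From radial glia to neurons the 3 SoxB1 genes were lower and the 3 SoxC genes higher in every library. The 3 SoxB1 ratios of neurons over radial glia all lay beyond -0.5, where 34.2%, 30.3%, 33.3% and 32.5% of all measured genes lay, in the P0 knockout, the P0 wild type, the library labelled E14.5 knockout and the E14.5 wild type. The 3 SoxC ratios all lay above 0.5, against 27.9%, 30.7%, 27.1% and 28.4% of all genes in the same libraries. The median of all genes lay between -0.11 and 0.02.

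Sox2, the SoxB1 factor most used as a neural stem cell marker, stood at 999 CPM in radial glia of the P0 knockout (2171 counts), 912 CPM in the P0 wild type (1047 counts), 918 CPM in the library labelled E14.5 knockout (1767 counts) and 612 CPM in the E14.5 wild type (450 counts). In Eomes-positive cells it stood at 348, 144, 178 and 179 CPM, and in neurons at 24.0, 10.6, 21.3 and 3.57 CPM, in the same order. The 3 steps do not overlap within any library. The log2 ratio of neurons over radial glia was -5.38 (95% interval -5.77 to -5.01) in the P0 knockout, -6.42 (-7.07 to -5.84) in the P0 wild type, -5.43 (-5.73 to -5.15) in the library labelled E14.5 knockout and -7.42 (-8.64 to -6.43) in the E14.5 wild type.

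The Sox2 level of neurons was no higher than that of microglia in any library. Microglia, which arise outside the nervous system, read 145 CPM in the P0 knockout, 22.9 CPM in the P0 wild type, 29.7 CPM in the library labelled E14.5 knockout and 8.94 CPM in the E14.5 wild type, from 54, 4, 5 and 1 counts. One barcode held 33.3% of the microglial Sox2 counts of the P0 knockout. Endothelial and mural cells read 18.0, 43.0, 34.3 and 0 CPM, from 4, 9, 17 and 0 counts, so in the P0 knockout neurons at 24.0 CPM lay between these gates. The part of free RNA in neuronal Sox2 was not tested.

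Within the Eomes-positive gate the Sox2 level was graded. Radial glia that also carried Eomes had 671 CPM in the P0 knockout, 579 CPM in the P0 wild type, 483 CPM in the library labelled E14.5 knockout and 343 CPM in the E14.5 wild type. Cells with Eomes and no radial glial or neuronal signal had 359, 135, 317 and 322 CPM, where 1 of 11 barcodes held 65.1% of the counts of the E14.5 wild type, and cells with Eomes and neuronal markers had 118, 56.6, 61.1 and 54.0 CPM. The last step was the lowest in all 4 libraries. The intervals of the last 2 steps overlap in the P0 wild type, which had 16 and 15 counts there, and those of the first 2 steps overlap in the E14.5 wild type.

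Sox1, the SoxB1 factor also known from lens and ventral forebrain, had fewer counts. It stood at 169, 151, 142 and 122 CPM in radial glia, 58.5, 31.9, 33.7 and 24.8 CPM in Eomes-positive cells, and 12.6, 7.97, 7.16 and 1.78 CPM in neurons of the P0 knockout, the P0 wild type, the library labelled E14.5 knockout and the E14.5 wild type. The log2 ratio of neurons over radial glia lay between -6.10 and -3.74. Microglia had 29.6, 17.2, 11.9 and 0 CPM of Sox1, from 11, 3, 2 and 0 counts, the last allowing up to 26.8 CPM. In cells with Eomes alone the P0 wild type had 0 counts, which allows up to 25.3 CPM.

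Sox3, the X-linked SoxB1 factor, stood at 86.1, 111, 169 and 211 CPM in radial glia in the same order. Eomes-positive cells had 14.97, 6.84, 29.7 and 19.9 CPM, from 11, 3, 44 and 12 counts, and neurons had between 2 and 19 counts. Its ratio of neurons over radial glia lay between -7.30 and -5.48. Over all radial glia both P0 libraries lay below both E14.5 libraries. In non-cycling radial glia alone the levels were 84.7, 125, 124 and 133 CPM, and the P0 wild type was level with the library labelled E14.5 knockout.

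Sox4, a SoxC factor of newly born neurons, stood at 516 CPM in radial glia of the P0 knockout, 627 CPM in the P0 wild type, 776 CPM in the library labelled E14.5 knockout and 848 CPM in the E14.5 wild type. Microglia had 396, 412, 410 and 107 CPM of Sox4, and radial glia with Eomes already had 2470, 2932, 2991 and 2367 CPM. The highest Sox4 level along the lineage was in cells with both Eomes and neuronal markers in every library, at 4005, 4517, 4222 and 4452 CPM. In the P0 knockout its interval (3758 to 4263) overlaps that of maturing neurons (3701 to 3860). In the P0 wild type its interval (4265 to 4781) overlaps that of early neurons (3682 to 4305). Neurons had 3746, 3615, 3629 and 3790 CPM, which gives log2 ratios over radial glia of 2.86 (2.77 to 2.95), 2.53 (2.42 to 2.64), 2.23 (2.15 to 2.30) and 2.16 (2.04 to 2.28).

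Sox11, the SoxC factor known to drive early neuronal genes, stood at 587, 647, 1325 and 942 CPM in radial glia. Microglia had 369, 441, 1200 and 8.94 CPM of Sox11. Cells with Eomes alone had 5245, 6700, 4675 and 4104 CPM, and cells with Eomes and neuronal markers had 9366, 9956, 8469 and 8507 CPM. At the next step the 2 ages went opposite ways. Early neurons had 7439 and 6638 CPM in the P0 knockout and wild type, from 49 and 39 cells, below the preceding step. They had 9407 and 8916 CPM in the library labelled E14.5 knockout and the E14.5 wild type, above the preceding step. In the E14.5 wild type the intervals of these 2 steps overlap. Maturing neurons had 6850, 6595, 9027 and 8067 CPM, and in the E14.5 wild type this lies below both steps. The ratio of neurons over radial glia was 3.56 (3.47 to 3.64) in the P0 knockout, 3.35 (3.24 to 3.46) in the P0 wild type, 2.80 (2.74 to 2.86) in the library labelled E14.5 knockout and 3.14 (3.03 to 3.25) in the E14.5 wild type.

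Sox12, the third SoxC gene, had the log2 ratio of neurons over radial glia smallest in absolute size of the 6 genes in each library. Its level in radial glia was 48.8, 38.3, 109 and 64.0 CPM, and in neurons 99.0, 106, 218 and 145 CPM. The ratios of neurons over radial glia lay between 1.00 and 1.46. Over the 3 Eomes steps no library showed a level above its neurons, and microglia had 32.3, 5.73, 17.8 and 0 CPM.

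**Figure D1:**
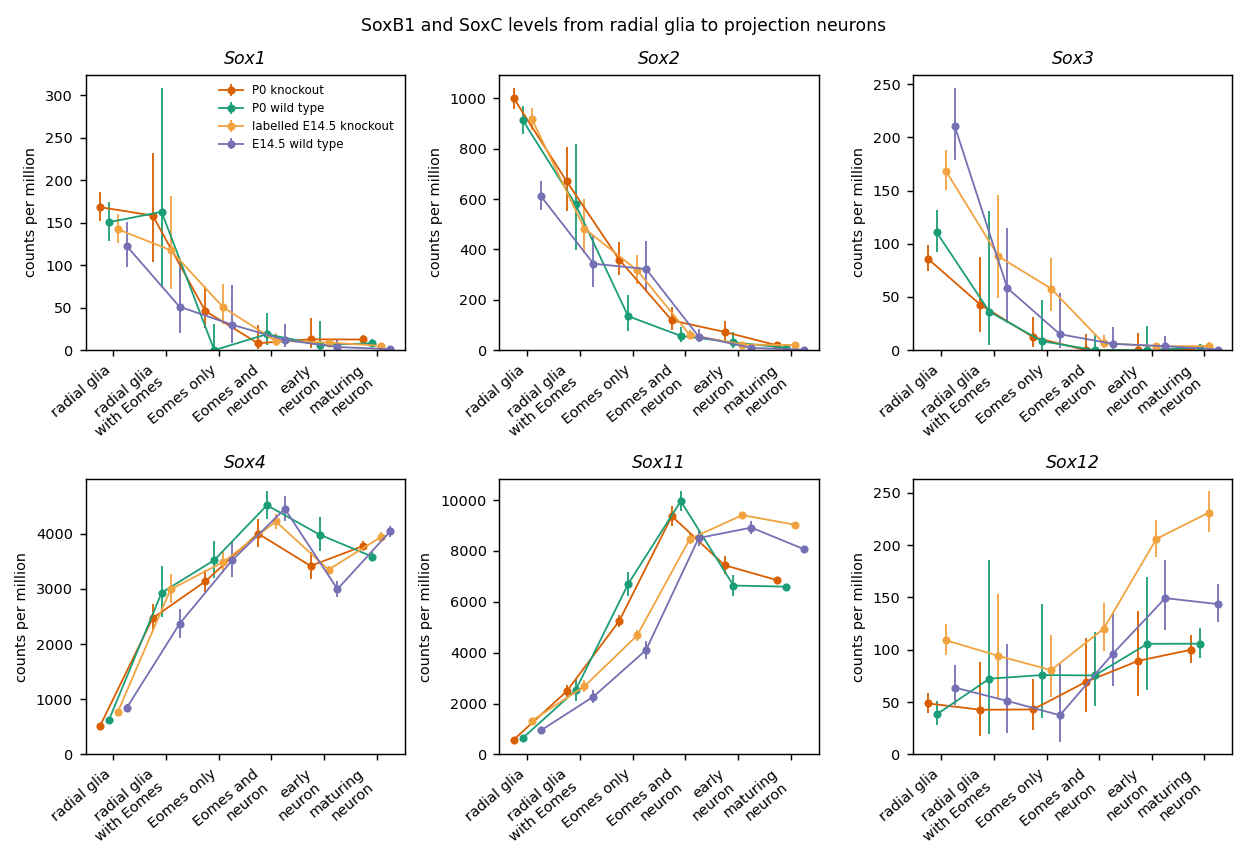
Level of each gene, in CPM of the gate, at the 6 steps from radial glia to maturing projection neurons in the 4 libraries. Points are sums over cells, bars are 95% Poisson intervals, and the vertical scale differs between panels. Sox2 in the P0 knockout stands at 999 in radial glia and 19.0 in maturing neurons, while Sox11 stands at 587 and 6850.

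Detection per cell was compared after every barcode was thinned to 1500 counts, with the gates of the full counts kept. Sox2 had a count in 74.1% of radial glia (68.8% to 78.9%, exact binomial) in the P0 knockout, 70.1% in the P0 wild type, 69.8% in the library labelled E14.5 knockout and 61.2% in the E14.5 wild type. Thinning left out 9 shallower radial glia in the library labelled E14.5 knockout. Without thinning these shares were 97.1%, 94.6%, 86.9% and 98.5%, at median depths of 5836, 6068, 2912 and 8548 counts. In microglia the same share was 8.51%, 0%, 6.52% and 0%, where 0 of 22 and 0 of 13 cells have exact upper bounds of 15.4% and 24.7%. Sox11 had a count in 50.8%, 44.9%, 76.5% and 70.1% of radial glia and in at least 99.6% of neurons in every library, against 17.0%, 22.7%, 41.3% and 0% of microglia.

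Both subfamilies were met in the same radial glia. Sox2 and Sox11 were both counted in 38.5% of thinned radial glia in the P0 knockout, 34.1% in the P0 wild type, 52.1% in the library labelled E14.5 knockout and 41.8% in the E14.5 wild type. Among P0 wild-type radial glia, Sox11 was counted in 48.7% of those with Sox2 and in 36.0% of those without, and in the library labelled E14.5 knockout in 74.7% and 80.7%. The pair was met in 27.0%, 16.1%, 19.2% and 20.5% of Eomes-positive cells and in between 0.80% and 3.76% of neurons. The part of free RNA in these shares was not tested.

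Other cell classes separated the members further. In maturing inhibitory neurons, gated by Dlx and Gad genes and left without cycling cells, Sox2 stood at 417 CPM in the P0 knockout, 395 CPM in the P0 wild type, 528 CPM in the library labelled E14.5 knockout and 490 CPM in the E14.5 wild type. Maturing projection neurons of the same libraries had 19.0, 9.06, 20.3 and 1.77 CPM. The log2 ratio of inhibitory over projection neurons was 4.45 (3.85 to 5.06), 5.45 (4.73 to 6.24), 4.70 (4.25 to 5.17) and 8.12 (6.53 to 10.42), so the intervals stay far from 0 in all 4 libraries.

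Sox1 showed the same split, at 286, 179, 185 and 276 CPM in maturing inhibitory neurons against 12.6, 8.10, 5.08 and 1.18 CPM in maturing projection neurons. Sox3 did not reach comparable levels there, with 4, 1, 6 and 2 counts in maturing inhibitory neurons. Among the SoxC genes, Sox11 was lower in maturing inhibitory neurons by 0.23 to 0.32 on the log2 scale in the 4 libraries, and Sox4 by 0.17 to 0.64. These inhibitory gates held 32, 53, 195 and 26 cells.

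Oligodendrocyte precursors, gated by Pdgfra, Olig1, Olig2, Cspg4 and Lhfpl3, numbered 223 in the P0 knockout and 106 in the P0 wild type, against 21 in the library labelled E14.5 knockout and 4 in the E14.5 wild type, and only the P0 values are described. Their Sox2 stood at 779 CPM in the knockout and 585 CPM in the wild type. Sox3 stood at 150 and 132 CPM, above radial glia by 0.80 (0.51 to 1.09) in the knockout and by 0.26 (-0.15 to 0.66) in the wild type, where the interval holds 0. Sox4 stood at 1541 and 1174 CPM, above radial glia by 1.58 (1.47 to 1.68) and 0.90 (0.76 to 1.05), while Sox1 was below radial glia in both, at -1.13 and -0.60.

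**Figure D2:**
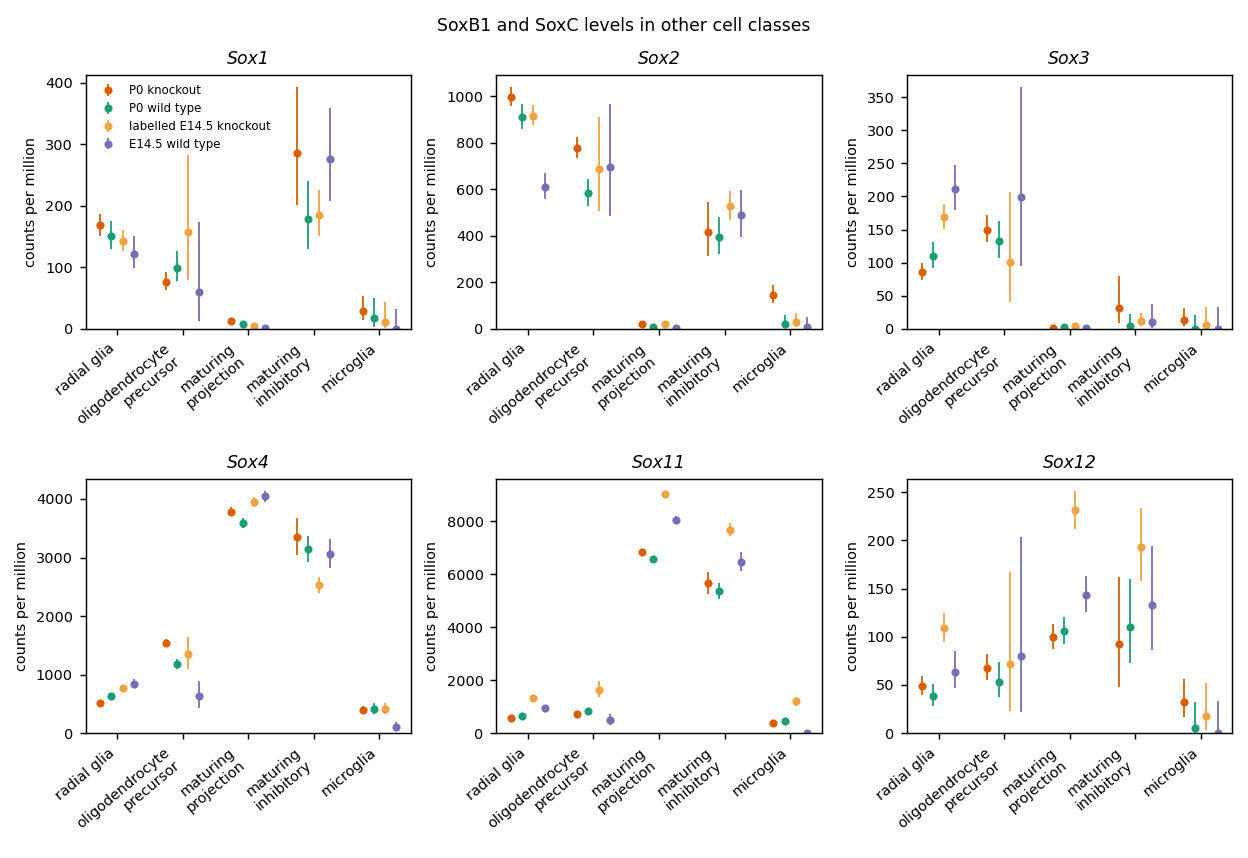
Level of each gene, in CPM, in radial glia, oligodendrocyte precursors, maturing projection neurons, maturing inhibitory neurons and microglia of the 4 libraries, with 95% Poisson intervals and a separate vertical scale per panel. In the P0 knockout Sox2 stands at 417 in maturing inhibitory neurons, 145 in microglia and 19.0 in maturing projection neurons, and Sox1 at 286, 29.6 and 12.6.

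At P0 the knockout and wild type differed little in radial glia. None of the 6 genes was past the fold there, against 22.8% of all genes. Sox2 had 999 CPM in the knockout and 912 CPM in the wild type, a log2 ratio of 0.13 (0.02 to 0.24), and Sox4 had 516 CPM in the knockout and 627 CPM in the wild type, a ratio of -0.28 (-0.42 to -0.14). Sox11 was at -0.14 (-0.27 to -0.01), but at 0.19 after thinning and 0.084 without cycling barcodes, and Sox4 was at 0.017 after thinning. For ratios after thinning the gates were drawn anew on the thinned counts, so the cells of a gate changed along with depth. Sox3 was at -0.36 (-0.70 to -0.03), Sox1 at 0.16 (-0.10 to 0.43) and Sox12 at 0.35 (-0.17 to 0.89).

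Sox2 stood apart between the P0 libraries in Eomes-positive cells. It had 348 CPM (256 counts) in the knockout and 144 CPM (63 counts) in the wild type, a ratio of 1.28 (0.88 to 1.70). The make-up of the gate moved with it. Of the Eomes-positive cells, 76 of 122 in the knockout and 31 of 87 in the wild type had no neuronal markers, and 27.0% in the knockout and 13.8% in the wild type carried cycling markers. Within cells with Eomes alone the ratio was 1.41 (0.66 to 2.27) from 117 and 16 counts, within cells with Eomes and neuronal markers it was 1.06 (0.11 to 2.07), and within radial glia with Eomes it was 0.21 (-0.37 to 0.83). Without cycling barcodes the pooled ratio was 0.70, and after thinning it was 0.48. The part of this make-up in the pooled ratio was not tested beyond these values. Cells with Eomes and neuronal markers had 118 CPM (29 counts) in the knockout and 56.6 CPM (15 counts) in the wild type. Microglia of the same libraries read 145 and 22.9 CPM, and the part of free RNA in these ratios was not tested.

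In the same P0 gate the SoxC genes lay the other way. Sox11 had 6004 CPM in the knockout and 8139 CPM in the wild type, a ratio of -0.44 (-0.50 to -0.37), and Sox4 had 3278 CPM in the knockout and 4049 CPM in the wild type, a ratio of -0.30 (-0.39 to -0.22). Within cells with Eomes and neuronal markers these ratios were -0.09 (-0.17 to -0.01) and -0.17 (-0.30 to -0.05). With Sox1 at 0.88 and Sox12 at -0.54, 3 of the 5 members with enough counts were past the fold, against 29.9% of all genes. Sox1 and Sox12 rest on 57 and 71 counts over both libraries. None of the 3 calls held under every setting. After thinning, with the gates drawn anew, Sox12 was at 1.08 and Sox2 at 0.48, and without cycling barcodes Sox1 was at -0.53.

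In P0 neurons the abundant SoxC genes were nearly level. Sox4 had 3746 CPM in the knockout and 3615 CPM in the wild type, a ratio of 0.05 (0.01 to 0.09), Sox11 was at 0.07 (0.03 to 0.10) and Sox12 at -0.10 (-0.36 to 0.17). Of the 5 members with enough counts, Sox1 and Sox2 were past the fold, against 17.1% of all genes, at levels no higher than those of microglia.

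At E14.5 the library labelled knockout had more Sox2 than the wild type in radial glia, at 918 CPM against 612 CPM, a ratio of 0.58 (0.43 to 0.74). Sox12 had 109 CPM in the library labelled knockout and 64.0 CPM in the E14.5 wild type, a ratio of 0.77 (0.31 to 1.26). These 2 of 6 members were past the fold, against 39.3% of all genes, whose median was 0.10. Across the settings tried the Sox2 ratio lay between 0.30, without cycling barcodes, and 0.68, without barcodes with astrocyte markers. Cycling cells made up 80.6% of radial glia in the library labelled knockout and 56.7% in the wild type. Non-cycling radial glia had 81.8 CPM of Sox12 (25 counts) and 74.3 CPM (24 counts) in the same order. Cycling radial glia had 114 and 55.9 CPM.

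Sox11 in radial glia had 1325 CPM in the library labelled E14.5 knockout and 942 CPM in the E14.5 wild type, a ratio of 0.49 (0.37 to 0.62). Microglia of the same libraries read 1200 and 8.94 CPM of Sox11, from 202 counts in 48 cells and 1 count in 13 cells, and 1 barcode held 33.2% of those 202 counts. The part of such background in the radial glial ratio was not tested. Without cycling barcodes the Sox11 ratio was 0.99. Sox4 in radial glia was at -0.13 (-0.26 to 0.01), and at 0.50 without cycling barcodes, and Sox3 at -0.32 (-0.60 to -0.04), with 169 CPM in the library labelled knockout and 211 CPM in the wild type.

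In Eomes-positive cells of E14.5 Sox2 had 178 CPM in the library labelled knockout and 179 CPM in the wild type, a ratio of -0.01 (-0.34 to 0.33), and at 0.39 without the 5% of barcodes with most counts. Sox3 (0.58) and Sox12 (0.55) were the 2 of 6 members past the fold, against 30.9% of all genes, and the Sox3 interval holds 0. After thinning Sox3 was at -0.082. In neurons 3 of 5 members were past the fold, against 27.3% of all genes: Sox1 and Sox2, which had 4 and 8 counts in the E14.5 wild type, and Sox12 at 0.59 (0.41 to 0.77), with 218 CPM in the library labelled knockout and 145 CPM in the wild type. Sox4 and Sox11 in neurons stood at -0.06 (-0.10 to -0.03) and 0.16 (0.13 to 0.18).

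**Figure D3:**
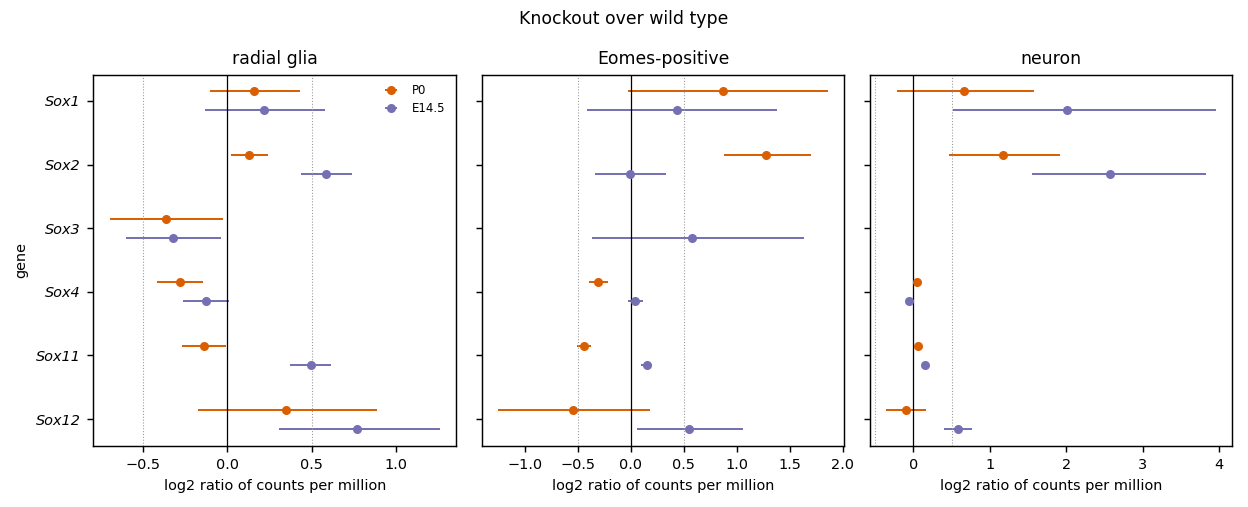
Log2 ratio of knockout over wild type for each gene in radial glia, Eomes-positive cells and neurons, at P0 and at E14.5, where the knockout library is so by its label only. Bars are 95% conditional binomial intervals for counting error, dotted lines mark 0.5 in either direction, genes with fewer than 30 counts over both sums are left out, and the horizontal scale differs between panels. Sox2 in Eomes-positive cells lies at 1.28 at P0 and at -0.01 at E14.5.

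Between the ages, Sox3 and the SoxC genes were lower at P0 in radial glia. In wild type, Sox3 had 111 CPM at P0 and 211 CPM at E14.5, a log2 ratio of -0.93 (-1.28 to -0.58). In the knockout pair it had 86.1 CPM at P0 and 169 CPM in the library labelled E14.5 knockout, a ratio of -0.97 (-1.24 to -0.71). The knockout pair also differed in sex, and the part of sex in its Sox3 ratio cannot be told apart from age. Sox11 was at -0.54 (-0.69 to -0.39) in wild type and at -1.17 (-1.27 to -1.08) in the knockout pair. Sox12 was at -0.74 and -1.16, and Sox4 at -0.43 and -0.59. Sox2 lay the other way in wild type, at 0.58 (0.41 to 0.74), with 0.12 (0.03 to 0.21) in the knockout pair, though thinning took the wild-type value to 0.37. In each pair 4 of 6 members were past the fold, against 41.4% of all genes in wild type and 53.5% in the knockout pair.

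The P0 radial glial gate held many cells with astrocyte markers, 190 of 309 in the knockout and 107 of 167 in the wild type, against 13 of 558 in the E14.5 library labelled knockout and 5 of 67 in the E14.5 wild type. Within the P0 gate such cells had less SoxC. Sox11 stood at 412 CPM with astrocyte markers and 868 CPM without in the P0 knockout, and at 489 and 912 CPM in the P0 wild type. Sox4 stood at 362 and 764 CPM in the knockout and at 517 and 814 CPM in the wild type. P0 microglia read 369 and 441 CPM of Sox11 and 396 and 412 CPM of Sox4 in the knockout and wild type. The part of free RNA in the SoxC levels with astrocyte markers was not tested. Sox2 was higher with astrocyte markers, at 1078 against 874 CPM in the knockout and 1021 against 730 CPM in the wild type.

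Over radial glia without astrocyte markers the age ratios were smaller for SoxC. Wild-type Sox11 was then at -0.10 (-0.29 to 0.08) and Sox4 at -0.09 (-0.29 to 0.10), so both intervals hold 0, and Sox11 in the knockout pair was at -0.61 (-0.73 to -0.49). Sox3 was still lower at P0, at -0.67 (-1.13 to -0.22) in wild type and -0.89 (-1.27 to -0.53) in the knockout pair. Wild-type Sox2 was at 0.35 (0.13 to 0.57) and Sox12 at -0.43 (-1.27 to 0.37), neither past the fold, and Sox2 in the knockout pair was at -0.07 (-0.19 to 0.06). Sox1 was higher at P0 in both, at 0.68 (0.22 to 1.13) and 0.58 (0.30 to 0.86). Without cycling barcodes instead, wild-type Sox3 was at -0.09, from 84 and 43 counts.

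In neurons Sox11 had 6598 CPM at P0 and 8272 CPM at E14.5 in wild type, a ratio of -0.33 (-0.36 to -0.30), and it was at -0.42 (-0.44 to -0.39) in the knockout pair. Sox12 was at -0.45 (-0.70 to -0.21) and -1.14 (-1.34 to -0.94), and Sox4 at -0.07 and 0.05. Of the members with enough counts, 1 of 4 was past the fold in wild type (Sox2, from 24 and 8 counts), against 30.9% of all genes. In the knockout pair 2 of 5 were (Sox1, from 32 and 36 counts, and Sox12), against 43.0%.

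**Figure D4:**
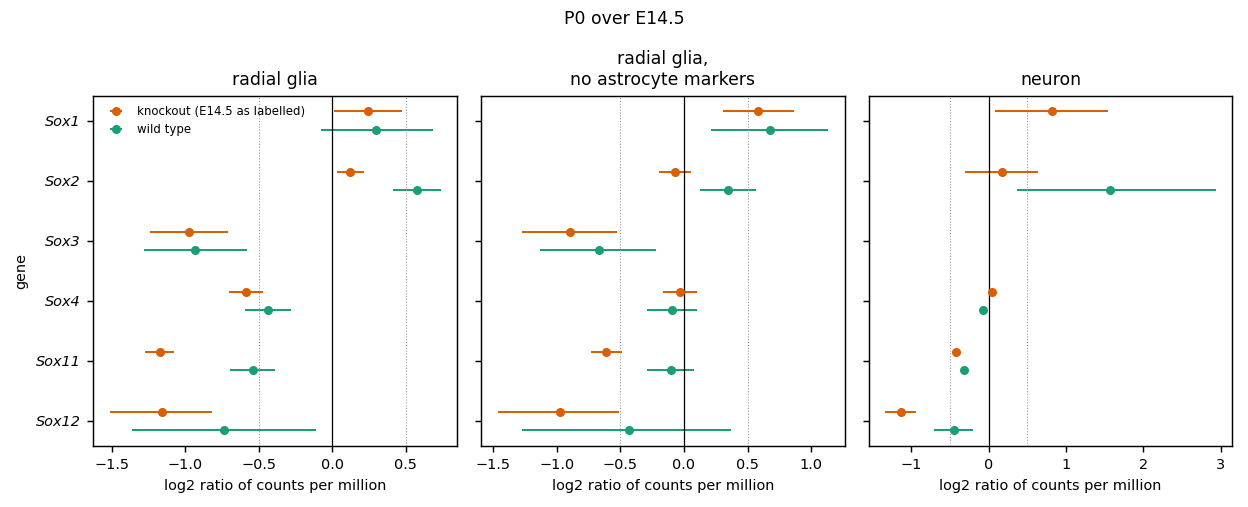
Log2 ratio of P0 over E14.5 for each gene in all radial glia, in radial glia without astrocyte markers and in neurons, for the knockout pair and the wild-type pair. Bars are 95% conditional binomial intervals for counting error, dotted lines mark 0.5 in either direction, and the horizontal scale differs between panels. Wild-type Sox11 lies at -0.54 in all radial glia and at -0.10 in those without astrocyte markers, where Sox3 lies at -0.67.

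Cycling and non-cycling radial glia differed in SoxC at P0. Sox11 had 804 CPM in cycling and 480 CPM in non-cycling radial glia of the P0 knockout, and 922 and 453 CPM in the P0 wild type, ratios of 0.74 (0.58 to 0.90) and 1.03 (0.81 to 1.24). In the library labelled E14.5 knockout it lay the other way, at 1218 CPM in cycling and 1896 CPM in non-cycling cells, a ratio of -0.64 (-0.77 to -0.50). In the E14.5 wild type it was at -0.03 (-0.25 to 0.19). Microglia read 369 and 441 CPM of Sox11 in the P0 knockout and wild type. They read 1200 CPM in the library labelled E14.5 knockout, near its cycling radial glia, and 8.94 CPM in the E14.5 wild type. The part of free RNA was not tested in any library.

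Genes tied to SoxB1 and SoxC were described beside the members. Of the genes known to be bound or induced by SoxB1 factors, Nes and Hes5 were also gating markers. Of the other 4, Nr2e1, Notch1 and Sox21 were lower in neurons than in radial glia by more than 0.5 in all 4 libraries, as was Gli2 in the 2 libraries where it had enough counts. In that comparison between 30.3% and 34.2% of all measured genes were lower by 0.5 or more, and between 27.1% and 30.7% higher. Notch1, a receptor that keeps progenitors, had 11.8 CPM in neurons and 496 CPM in radial glia of the P0 knockout, and 4.87 and 455 CPM in the P0 wild type. Of the SoxC list, Tubb3, Dcx and Map2, which encode cytoskeletal proteins of neurons, were higher in neurons in all 4 libraries, and Tead2, a transcription factor of the Hippo pathway, was lower in all 4, at 14.9 CPM in neurons and 145 CPM in radial glia of the P0 knockout.

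Of the 5 POU and Pax partners, 3 were higher and 2 lower in neurons than in radial glia by 0.5 or more in each P0 library. The library labelled E14.5 knockout had 1 higher and 4 lower, and the E14.5 wild type 2 of each. Of all measured genes, between 27.1% and 30.7% were higher and between 30.3% and 34.2% lower in the 4 libraries. Pax6 was 1 of the 10 radial glial gating markers, so its part in these counts is not free of the gates. Pou3f2, known as Brn2, had 1282 CPM in neurons and 317 CPM in radial glia of the P0 knockout and 1577 and 505 CPM in the P0 wild type, 182 and 376 CPM in the library labelled E14.5 knockout, and 453 and 257 CPM in the E14.5 wild type. All 5 genes of that list, with Pax6 a gating marker, were higher in neurons at P0 than at E14.5 in both pairs. Of all genes in that comparison, 30.9% in wild type and 43.0% in the knockout pair were past the fold in either direction. Their medians were 0.09 and 0.03. Among other Sox genes, Sox9, which marks glial progenitors, had 924, 808, 869 and 733 CPM in radial glia and at most 19.7 CPM in neurons. Sox5, known in deep-layer projection neurons, had 71.5 and 107 CPM in neurons of the P0 knockout and wild type, against 1398 CPM in the library labelled E14.5 knockout and 663 CPM in the E14.5 wild type. Sox2 and Sox1 lie inside the RefSeq spans of the noncoding genes Sox2ot and Sox1ot, and the sources used here do not say whether counting used strand, so reads of each pair cannot be told apart with certainty.

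The genes whose levels followed each member most closely were ranked by Pearson correlation over 24 sums, 6 steps in 4 libraries, among 7762 genes without the members and gating markers. These sums share libraries and lie along 1 course, so the correlation is a description. Sox2 was most like Sox21 (0.94), Notch1 (0.94) and Efhd2 (0.93), and Sox3 most like Zfp36l1 (0.95), Yap1 (0.95) and Id4 (0.94). Sox1 was most like Zfp36l1 (0.94), Gas1 (0.92) and Krcc1 (0.92). Sox11 was most like Dcx (0.98), Rbfox2 (0.96) and Dbn1 (0.95), Sox4 was like Srrm4 (0.96) and Mex3b (0.93), and Sox12 most like Efnb2 (0.94), Ywhaz (0.89) and Zfp462 (0.89).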

How the data were processed

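Cells were dissociated with trypsin and processed with the Asteria kit with 15000 input cells per sample, per the labels' protocols. The authors deposited unscaled whole-number counts per gene and barcode. The submitters' processing notes name GRCm39, FastQC 0.12.1, Seurat 5 and R 4.3.2 but give them no role, and the sources used here do not give the aligner, counting program, barcode filter or any collapsing to molecules. Barcodes under 500 counts or 300 genes, or over 10% mitochondrial, were dropped. Gates used marker sums per 10000 counts, with cuts set from the distributions of those sums (radial glia 25, Eomes 5, projection neurons 12, inhibitory lineage 10, oligodendrocyte precursors 10, microglia 20, maturing neurons 30, astrocytes 9, mitosis 15, S phase 20). Between 20 and 177 barcodes per library lay within 20% of the radial glial cut. Sums were compared as CPM, and a sum of 0 was set to 3 counts in a ratio. Python 3.11.15, numpy, scipy and edgeR (TMM factors only) were used, and ratios were tested on simulated data. The named genes are the 6 members, fixed lists of Sox, partner and target genes, and the 3 genes most alike per member on log2(CPM + 5), of which 1 is not reported here. The members, lists and gates were chosen with earlier results of these data known. RefSeq windows are of build GRCm38.p6, so no other coordinates are given. Intervals cover counting error only.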

Additional observations from a re-analysis of the deposited data

Results flagged for a closer look

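The 6 genes were screened in radial glia, Eomes-positive cells and neurons. The KO over WT ratio lay in opposite directions at P0 and at E14.5, with both counting intervals clear of 0, for 3 values. The share of all genes meeting this rule was not computed, so whether this count is unusual is not known. In radial glia Sox11 was at -0.14 at P0 and 0.49 at E14.5, a difference of -0.63, though the P0 value was 0.19 after thinning and 0.084 without cycling barcodes. In Eomes-positive cells it was at -0.44 at P0 and 0.15 at E14.5, a difference of -0.59. The gate differed in make-up at P0, with 76 of 122 knockout and 31 of 87 wild-type cells without neuronal markers, and within cells with Eomes and neuronal markers Sox11 was at -0.088 at P0 and -0.0065 (-0.069 to 0.056) at E14.5. Sox4 in neurons was at 0.05 at P0 and -0.06 at E14.5, a difference of 0.11. At E14.5 maturing cells made up 635 of 1384 neurons in the library labelled knockout and 179 of 250 in the wild type. Within early neurons Sox4 was at -0.22 (-0.37 to -0.070) at P0 and 0.16 (0.084 to 0.24) at E14.5, the reverse of the pooled directions, and within maturing neurons it was at 0.076 and -0.036 (-0.081 to 0.0095). With 1 animal per group these differences were not tested, and the E14.5 side rests on the library labelled knockout.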

How the results depend on the processing

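No paired analysis was possible because each group is 1 library and no ratio comes from a test. Values for the SoxB1 and SoxC sums were counted apart, without those of Eomes-positive cells and of the knockout pair across ages. Of these, 124 stayed within their counting interval and 42 did not. For members and all remaining sums 752 did, 131 did not, and 7 that were past the fold changed sign. Ratios of single members under the fold changed sign 28 times more. Thinned ratios used gates drawn anew on the thinned counts, so the cells of a gate changed along with depth. Shares of cells with a count kept the gates of the full counts. In each case the cause was not tested.

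TMM scaling moved all ratios of neurons over radial glia by 0.12 and 0.13 in the library labelled E14.5 knockout and the E14.5 wild type. Neurons over radial glia kept its direction for both sums under every setting run. With cuts raised by 1.5 times the SoxB1 sum was -4.91 and the SoxC sum 2.48 in the library labelled E14.5 knockout, and SoxC was 3.05 in the P0 wild type. Thinned, the P0 knockout had -4.72 and 3.14, and the P0 wild type 3.20 for SoxC. Without the 5% of barcodes with most counts SoxC was 3.10 (P0 wild type), 2.65 (labelled E14.5 knockout) and 2.62 (E14.5 wild type). By per-barcode means it was 3.08 (P0 wild type) and 2.62 (labelled E14.5 knockout), and by TMM 2.68 and 2.85 in the library labelled E14.5 knockout and the E14.5 wild type. Without cycling barcodes it was 3.504, 3.32 and 2.03 in the P0 knockout, the P0 wild type and the library labelled E14.5 knockout.

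For knockout over wild type in radial glia of E14.5, SoxB1 was 0.20 thinned, 0.15 without the deepest barcodes and 0.13 by means, against 0.38. SoxC was 0.38 with raised cuts, 0.15 thinned, 0.071 without the deepest barcodes, 0.16 by means, 0.16 by TMM and 0.76 without cycling barcodes, against 0.25. In E14.5 neurons SoxC was 0.078 without mitochondrial and ribosomal genes and 0.027 by TMM. In P0 radial glia SoxC was -0.084 with raised cuts, 0.12 thinned and -0.071 without astrocyte-marker barcodes, a setting chosen after seeing the data.

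For P0 over E14.5 in wild-type radial glia, SoxB1 was 0.12 thinned, 0.087 without the deepest barcodes, 0.064 by means and 0.52 without cycling barcodes. SoxC was -0.81, -0.71, -0.64 and -0.88 under the same settings and -0.11 without astrocyte-marker barcodes. In neurons SoxB1 was 0.72 with raised cuts, and SoxC was -0.21 with raised cuts and -0.33 by TMM.

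The share of radial glia with Sox2 was 58.3%, 52.7%, 57.4% and 46.3% at 1000 counts and 88.7%, 81.8%, 86.2% and 77.6% at 2500 counts in the P0 knockout, the P0 wild type, the library labelled E14.5 knockout and the E14.5 wild type.

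Ratios of 0.5 or more in size, whatever their counts, that changed sign were these. Thinned, Sox3 at E14.5 was -0.082 in Eomes-positive cells and -1.66 in neurons, and Sox12 in P0 Eomes-positive cells was 1.08. Sox1 in Eomes-positive cells without cycling barcodes was -0.53 for P0 knockout over wild type and -0.16 for P0 over E14.5 in the knockout pair. Sox3 in wild-type neurons, P0 over E14.5, was -0.72 with raised cuts and -2.29 thinned. Among ratios under 0.5 in size, Sox11 in P0 radial glia, knockout over wild type, was 0.19 thinned and 0.084 without cycling barcodes. Sox4 there was 0.017 thinned, and Sox4 in E14.5 radial glia was 0.50 without cycling barcodes.

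Without the minimum of 30 counts, genes past the fold between knockout and wild type numbered 9861, 8967 and 8470 in P0 radial glia, Eomes-positive cells and neurons, against 2338, 2090 and 1712 with it. At E14.5 they numbered 10205, 8866 and 9856, against 3672, 2577 and 2903. Depth limits Sox3 in Eomes-positive cells and neurons, with at most 44 and 19 counts per library.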
